A study of Homo sapiens with 24 samples.

Results

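The sites described here are those with the largest excess of Rbap46 over input chromatin outside the large histone gene cluster of chromosome 6. A site was taken when its Rbap46 level minus its input level was 2 or more on the log2 scale, which is at least a 4-fold excess. Of 30475 sites in the authors' deposited table, 299 reached this limit, or 0.981%. The 7 of them that start between 25.5 and 28.5 Mb of chromosome 6 were left out, so that 292 sites remained. The members were thus chosen by the measured difference of Rbap46 and input, so the levels, differences and false discovery rates (FDR) of the sites in the Rbap46 table are a description of what was chosen and were not tested.

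By their labels, the libraries came from hTert-HME1, a human mammary epithelial cell line immortalised with telomerase and grown in mammary epithelial medium. Chromatin immunoprecipitation with sequencing of untreated cells gave 2 libraries with an antibody against Rbap46 and 2 input libraries without an antibody. A second comparison used an antibody against H3K9ac, with 3 libraries of cells carrying a control hairpin (shControl) and 3 of cells carrying a hairpin against HAT1 (shHAT1). Which of these cells are clones or separate transductions is not given in the sources used here. The other 14 of 24 libraries of the series were not analysed here. Each level is the authors' group mean of normalized reads on the log2 scale, so no spread between libraries can be given and the depth of each library is unknown. Positions are read as hg19, the build named in the submitters' processing notes. No annotation or genome of that build was used here, and sites are therefore identified by position and not by gene or sequence. Along chromosome 22 the input level was uneven. Between 19 and 24 Mb it had a median of 7.48 at 183 Rbap46 sites, and elsewhere on this chromosome one of 5.50 at 571 sites, per the authors' deposited table. The Rbap46 level was higher there as well, with medians of 8.21 and 6.61, per the authors' deposited table. The H3K9ac level in shControl cells had a median of 9.28 at 4 H3K9ac sites there and of 9.42 at the other 41, per the authors' deposited table. So few sites, all listed as changed, cannot show whether the H3K9ac level was raised there. No strong site lay in that stretch. Strong sites made up 0.398% of all sites above input on chromosome 22, so a count of 0 among 183 is not read as a trait of the stretch. Whether the cells of both comparisons differed was not tested, and the overlaps of both tables take them to be the same line, as labelled.

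Rbap46, the product of RBBP7, is a WD-repeat protein that binds histone H4 and acts as a histone chaperone. With HAT1 it forms the enzyme complex that acetylates lysines 5 and 12 of newly made histone H4 before its deposition on DNA. The same protein is also a subunit of several chromatin complexes, among them the NuRD and Sin3 deacetylase complexes and the Polycomb repressive complex PRC2. Acetylation of lysine 9 of histone H3 (H3K9ac) is a mark found mainly at active promoters and enhancers.

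Width could tell little about the 292 sites, since its quartiles and median were 501 bp both in them and in the other sites above input. All but 1 of the 292 had a width of 501 bp, the smallest in the table. The exception on chromosome 19 from 5292464 to 5293376 was 913 bp wide. The 292 sites spanned a wide range of read numbers. Their Rbap46 level per the authors' deposited table ran from 4.02 to 10.33, with a median of 7.30, which is 158 normalized reads. Their input level ran from 0.57 to 7.20, with a median of 5.12, or 34.8 normalized reads. The other 30133 sites above input, which include the 7 left out on chromosome 6, had a higher median input level, 5.85, and a lower median Rbap46 level, 6.85, per the authors' deposited table. A larger difference thus came with both more Rbap46 reads and fewer input reads at the median, as the limit favours. The median difference of the strong sites was 2.13, a 4.38-fold excess, against 1.05 for the other sites above input. Most lay close to the limit. The upper quartile of the difference was 2.27, 33 sites reached 2.5 and 6 sites reached 3.

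The authors' test called 30418 sites above input at an FDR under 0.05, which is 99.8% of their deposited table and 37.6% of the sites that the FDR values imply were tested. All 292 strong sites were among these, and nothing is read from that, since the same contrast chose them. Of the strong sites, 286 had an FDR under 0.01 and 256 an FDR under 0.001. The other sites above input had a median FDR of 0.000893 and an upper quartile of 0.0117, so many of them passed these limits too. Nothing is read from these counts either. At the edge of the limit, 11 sites had a difference of exactly 2.00 and 14 sites of the table a difference of 1.99. Just inside, the site on chromosome 7 from 65580034 to 65580534 had levels of 8.67 in Rbap46 and 6.67 in input per the authors' deposited table. The sites of chromosome 16 from 23464180 to 23464680 and from 4784322 to 4784822 had a difference of 2.00 as well. Just outside, the site of chromosome 6 from 39196907 to 39197407 had levels of 8.74 and 6.75 per the authors' deposited table. It was followed by sites of chromosome 7 from 89975840 to 89976340 and of chromosome 2 from 61244410 to 61244910. Sites on either side of the limit therefore had nearly the same levels.

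**Figure D1:**
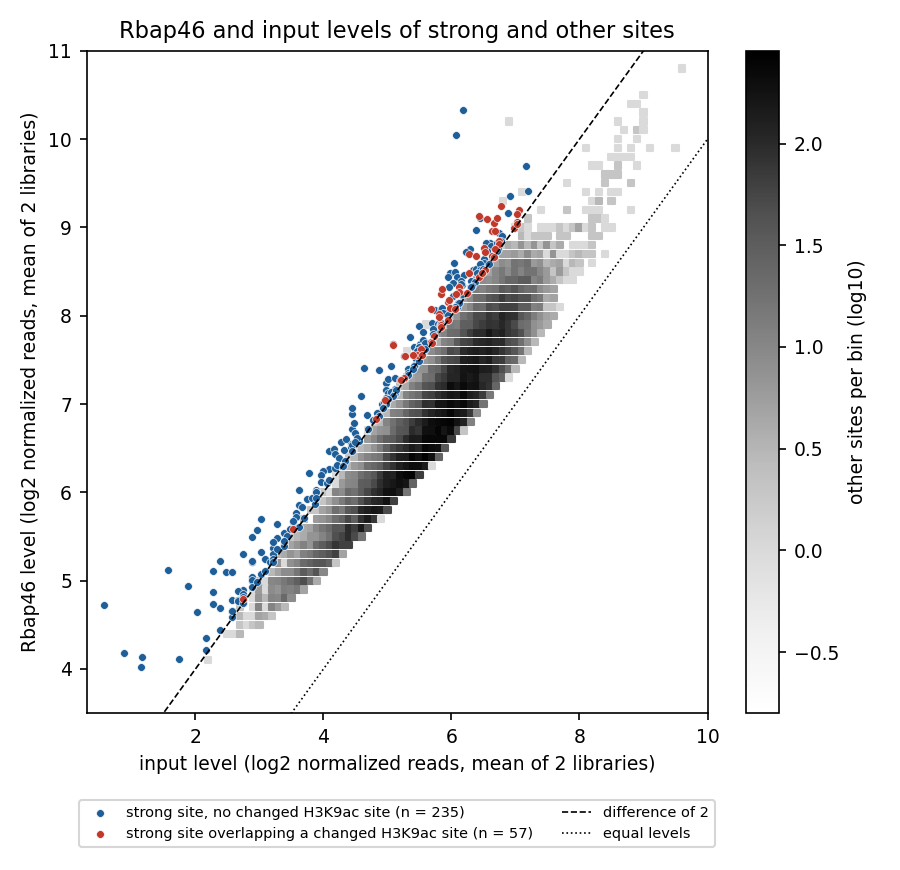
Rbap46 level (vertical) against input level (horizontal) for the 292 strong sites (points) and the other sites above input (grey squares, shaded by the number of sites per bin), as log2 means of 2 libraries each from the authors' deposited table. The strong sites run along the whole range of levels above the dashed line of a difference of 2, and those that overlap a changed H3K9ac site (red) lie mostly at Rbap46 levels of 7 or more.

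A site on the long arm of chromosome 11, from 118306555 to 118307055, stood first by difference, by FDR and by Rbap46 level. Its levels per the authors' deposited table were 10.33 in Rbap46 and 6.18 in input, or 1287 against 72.5 normalized reads. The difference was 4.15 and the FDR 3.28e-196. The width of the signal was not measured. The nearest other site above input, from 118305296 to 118305796, lay 758 bp away and had an Rbap46 level of only 7.02 and a difference of 1.13 per the authors' deposited table. The nearest changed H3K9ac site was 34.2 kb away.

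The site second by Rbap46 level lay on chromosome X from 77359300 to 77359800, with levels of 10.05 and 6.07 and a difference of 3.98 per the authors' deposited table. Its FDR of 0.00722 was large for such levels. Among the 191 strong sites with an Rbap46 level of 6.5 or more, the next largest FDR was 6.90e-08 per the authors' deposited table, at a site of chromosome 12 from 117318730 to 117319230 with a level of 6.57. Of the 96 sites above input with an Rbap46 level of 9 or more, whether strong or not, the site on chromosome X was the only 1 with an FDR over 0.001. Values per library were not used here, so whether both Rbap46 libraries were high at this site is not known, and the mean level and the difference are to be read with that limit.

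A second strong site had a larger FDR than strong sites of like level. It lay on chromosome 9 from 139137101 to 139137601, with levels of 8.08 and 5.68 and with an FDR of 3.35e-12 per the authors' deposited table. The 30 strong sites within 0.2 of its Rbap46 level had FDR values from 9.30e-32 to 2.40e-19. This site was chosen after its values were seen.

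**Figure D2:**
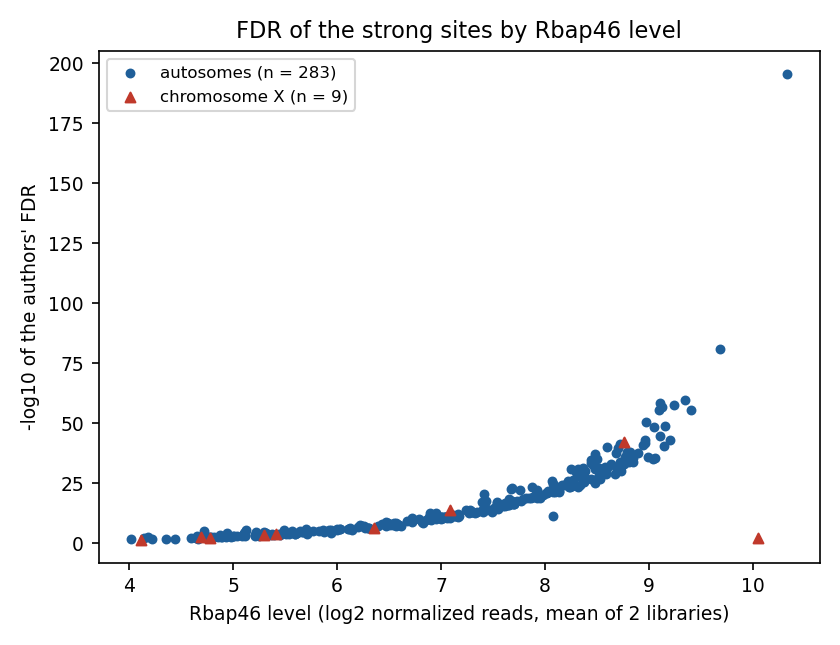
The negative log10 of the authors' FDR (vertical) against the Rbap46 level (horizontal, log2 mean of 2 libraries) for the 292 strong sites, with chromosome X as triangles. The FDR follows the level closely, except at the site of chromosome X at a level of 10.05 and at the site of chromosome 9 at a level of 8.08, which lie below the other points.

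The sites with the smallest FDR after that of chromosome 11 were all of high level. The site of chromosome 6 from 35227096 to 35227596 lies outside the histone cluster and had levels of 9.69 and 7.16 (FDR 1.79e-81) per the authors' deposited table. On chromosome 1, the site from 211848988 to 211849488 had levels of 9.35 and 6.91 (FDR 2.71e-60) per the authors' deposited table. On chromosome 19, the site from 50490364 to 50490864 had levels of 9.11 and 6.45 (FDR 5.63e-59) per the authors' deposited table. None of these 3 overlapped a changed H3K9ac site.

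Next by FDR came 3 sites that did overlap one. They lay on chromosome 2 from 172864642 to 172865142, with a difference of 2.46, and on chromosome 19 from 13227362 to 13227862 and from 10811896 to 10812396, with differences of 2.70 and 2.54 per the authors' deposited table. The 10 sites of smallest FDR were completed by chromosome 3 from 47323945 to 47324445, chromosome 2 from 131100194 to 131100694 and chromosome 1 from 36554349 to 36554849, with differences of 2.21, 2.59 and 2.28 per the authors' deposited table. The one of chromosome 3 also had the highest input level of all strong sites, 7.20 per the authors' deposited table. The 10 sites of smallest FDR and the 10 of highest Rbap46 level had 7 sites in common.

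The other 3 of the 10 of highest level were the site of chromosome X and sites of chromosomes 10 and 15. On chromosome 10 the site from 70939572 to 70940072 had levels of 9.20 and 7.05, and that of chromosome 15 from 41523031 to 41523531 had levels of 9.15 and 7.02, per the authors' deposited table. Among the 5 sites of highest input was also that of chromosome 12 from 58165561 to 58166061, with levels of 9.06 and 7.03 per the authors' deposited table. The sites of chromosomes 10, 15 and 12 each overlapped a changed H3K9ac site.

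A different kind of site filled the list of the largest differences. Of the 15 sites with the largest difference, 10 had an Rbap46 level under 7. The site of chromosome 7 from 8857168 to 8857668 had the same difference of 4.15 as the site of chromosome 11, but its levels per the authors' deposited table were 4.72 and 0.57, or 26.4 against 1.48 normalized reads. On chromosome 10, the site from 23487878 to 23488378 had a difference of 3.55 that rested on 34.8 against 2.97 normalized reads. Chromosome 2 from 850052 to 850552 had a difference of 3.29 from 18.1 against 1.85 normalized reads. At such sites the input mean was that of a few reads, and the size of the difference was accordingly uncertain.

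The other sites of this kind had differences from 2.62 to 3.05. They lay on chromosome 18 from 48887774 to 48888274 (3.05), chromosome 9 from 68448796 to 68449296 (2.98), chromosome 11 from 3278774 to 3279274 (2.87) and chromosome 1 from 143200321 to 143200821 (2.84). Chromosome 6 from 170574713 to 170575213 had a difference of 2.84, chromosome 7 from 65112267 to 65112767 one of 2.67, and chromosome 17 from 67139742 to 67140242 one of 2.62 per the authors' deposited table. Input at these 7 sites was between 2.22 and 8.17 normalized reads. Better covered was chromosome 4 from 1408699 to 1409199, with 170 against 24.9 normalized reads and a difference of 2.77.

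Weakly covered input was frequent among the strong sites. An input level under 3, or fewer than 8 normalized reads, was found at 44 of the 292 sites, or 15.1%, against 33 of the 30133 other sites above input, or 0.110%. Input is subtracted in the rule that chose the strong sites, so the rule itself favours low input. These shares are therefore a description of the choice. Input levels also fell on repeated values, with 7 strong sites each at exactly 2.57, 2.74 and 2.89 per the authors' deposited table. Below an Rbap46 level of 5 the smallest difference of any listed site above input was 1.21, whereas at a level between 8 and 9 it was 0.33. Sites that were not listed were not used here, so whether the authors' limit bears on the count of weakly covered sites was not tested. Strong sites made up 10.5% of all sites above input with an Rbap46 level under 5 but 0.332% of those between 6 and 7. Their share was 3.85% between 8 and 9 and 16.7% at 9 or more. The strong sites were thus frequent at both ends of the range of levels. A level of 7 or more was reached by 171 strong sites, or 58.6%, and by 43.0% of the other sites.

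The strong sites were spread over all 23 chromosomes of the table. They made up 0.960% of all sites above input. The share was highest on chromosome 14, with 14 of 816 sites or 1.72%, and on chromosome 12, with 25 of 1490 or 1.68%. It was lowest on chromosome 5, with 4 of 1320 sites or 0.303%, and on chromosome 22, with 3 of 754 or 0.398%. Chromosome 6 held 10 strong sites outside the histone cluster, or 0.547% of all its sites above input, those in the cluster included. Chromosome 1 had the most sites above input, 3488, and a low share of strong ones, 0.602%. Coverage differed as well. On chromosome X 6 of 9 strong sites had an Rbap46 level under 7, and on chromosome 16 only 2 of 17. No test of these shares was made.

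**Figure D3:**
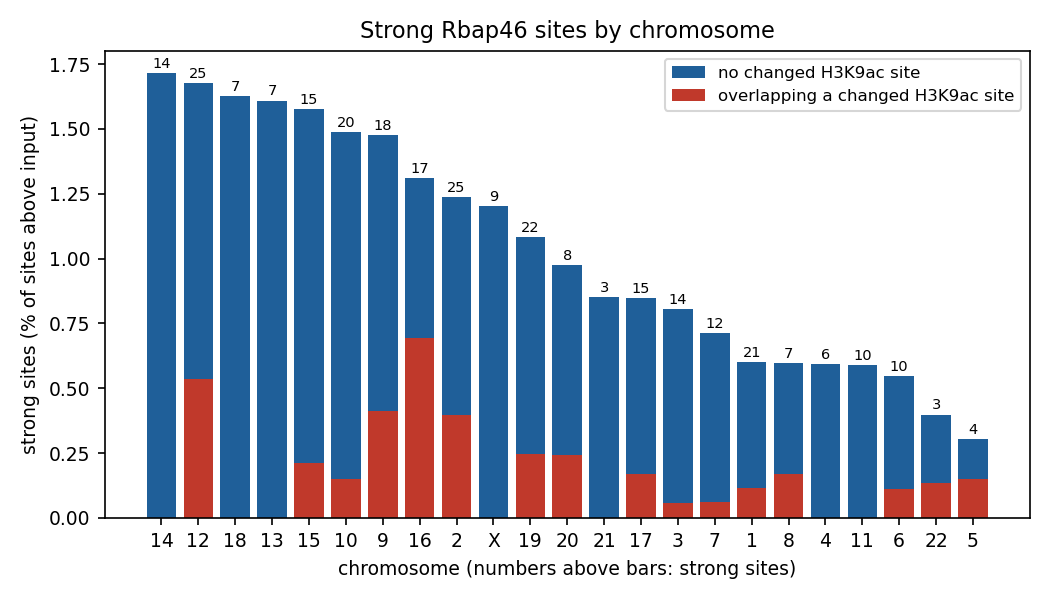
Strong sites as a percentage of all Rbap46 sites above input on each chromosome, in descending order, with the number of strong sites above each bar and the part that overlaps a changed H3K9ac site in red. Shares run from 1.72% on chromosome 14 to 0.303% on chromosome 5, and the red part is largest on chromosome 16, where 9 of 17 strong sites overlap a changed H3K9ac site.

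The median distance from a strong site to the next strong site was 2.06 Mb. No distance expected for 292 sites was computed, so whether they lay closer together or further apart than so few sites would was not tested. With up to 100 kb between neighbours, 16 of the 292 sites, or 5.48%, formed 8 pairs, and no group of 3 was found. Among all sites above input 94.5% had a neighbour within that distance, but these sites are far more numerous, so the shares cannot be set against each other. The closest pair lay on chromosome 1, from 10853802 to 10854302 and from 10855250 to 10855750, with 947 bp between them. Their levels per the authors' deposited table were alike, 5.67 and 5.45 in Rbap46 and 3.52 and 3.38 in input.

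The other 7 pairs were 11.1 to 92.2 kb apart. On chromosome 16, both sites of the pair from 5083636 to 5084136 and from 5147390 to 5147890 overlapped a changed H3K9ac site, with Rbap46 differences of 2.45 and 2.10 per the authors' deposited table. One site of the pair did so on chromosome 2, from 242640909 to 242641409, and on chromosome 17, from 49243807 to 49244307. None did so in the pairs of chromosomes 1, 9, 10, 14 and 15. In the pair of chromosome 14 the site from 105635338 to 105635838 had an Rbap46 level of 7.01, and its neighbour from 105647552 to 105648052 a level of 5.21, per the authors' deposited table. The difference was 2.05 at both.

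With up to 1 Mb between neighbours, 102 sites fell into groups, of which 10 had 3 sites and 3 had 4. The groups of 4 lay on chromosomes 12, 16 and 9. On chromosome 12 the group ran from 132195268 to 133405812 with Rbap46 levels of 8.44, 7.70, 8.24 and 8.09, and on chromosome 16 from 771021 to 1877341 with levels of 8.58, 8.72, 8.68 and 8.85, per the authors' deposited table. On chromosome 9 it ran from 139137101 to 140317887 with levels of 8.08, 6.89, 7.00 and 7.92 per the authors' deposited table. Of the 4 sites of each group, 3, 2 and 1 overlapped a changed H3K9ac site, in this order. Another group of chromosome 9, between 67793459 and 68449296, was of the weakly covered kind, with levels of 4.66, 4.64 and 4.14 in Rbap46 and of 2.57, 2.57 and 1.16 in input per the authors' deposited table. No site of that group overlapped a changed H3K9ac site. In fixed windows that start at whole megabases, the fullest held 3 strong sites, on chromosomes 9, 12, 16 and 19.

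At the median, strong sites stood further from the nearest Rbap46 site of any strength than the other sites above input did. The median distance to the nearest site above input was 16.0 kb for strong sites and 7.03 kb for the others. A neighbour within 10 kb was present for 121 strong sites, or 41.4%, against 57.5% of the other sites. The share was 46.2% for strong sites with a level of 7 or more and 34.7% for those below, against 60.8% and 55.1% of the other sites. Within 1 kb the shares were close, at 18.2% and 19.6%. The 53 strong sites with such a close neighbour had a median Rbap46 level of 7.14 and a median input level of 4.98 per the authors' deposited table. Their neighbours had medians of 6.76 and 5.66 and a median difference of 1.15, near the 1.05 of the other sites above input. The neighbour was itself a strong site in 1 case, and in 14 cases it had the higher Rbap46 level.

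Changed H3K9ac sites came from the comparison of shControl with shHAT1 cells, in a table normalized separately from that of Rbap46. Of 2191 such sites in the authors' deposited table, which ends below an FDR of 0.1, 2174 were lower in shHAT1 cells, or 99.2%. Those are 18.0% of the sites that the FDR values imply were tested. Overlap by at least 1 bp was counted. The count takes the cells of both comparisons to be the same line, as labelled, which was not tested. Of the 292 strong Rbap46 sites, 57, or 19.5%, overlapped a changed H3K9ac site, against 1649 of all 30425 sites above input, or 5.42%. H3K9ac sites that did not pass the authors' limit were not used here, so the share with the mark itself is not known.

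Overlap went with the Rbap46 level. Among strong sites with a level of 7 or more, 54 of 171, or 31.6%, overlapped a changed H3K9ac site, against 1372 of 12960 other sites above input at that level, or 10.6%. Below a level of 7 the counts were 3 of 121 strong sites, or 2.48%, and 220 of 17173 others, or 1.28%. Within the strong sites the share was 23.3% between levels of 7 and 8, 34.1% between 8 and 9, and 56.3% at 9 or more, where 9 of 16 overlapped. The other sites had 8.78%, 20.1% and 11.3% in the same ranges. At 9 or more the others had a median input level of 8.40 per the authors' deposited table, against 6.83 for the strong sites, so many of them had a high level in input already. Sites are not replicates, and no test of these shares was made.

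**Figure D4:**
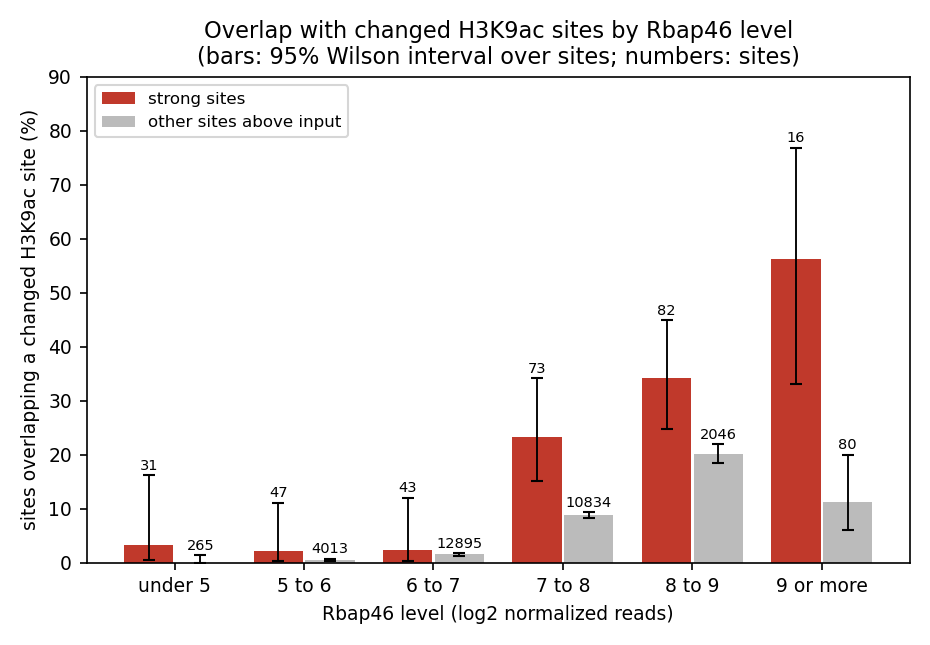
Percentage of sites that overlap a changed H3K9ac site (vertical) in ranges of Rbap46 level (horizontal, log2), for strong sites (red) and other sites above input (grey), with 95% Wilson intervals over sites and the number of sites above each bar. The share of strong sites rises from 2.33% between levels of 6 and 7 to 56.3% at 9 or more. The intervals cover counting error only, and since sites are not replicates they are not a test of the sets.

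By size of difference, overlap did not rise steadily. At a level of 7 or more, 33 of 111 sites (29.7%) with a difference from 2 to 2.2 overlapped, 18 of 44 (40.9%) from 2.2 to 2.5, and 3 of 16 (18.8%) at 2.5 or more. Below the limit of 2 and at the same level, 17.0% of the sites between 1.5 and 2 overlapped and 10.6% between 1 and 1.5. None of the 6 sites with a difference of 3 or more, at any level, overlapped a changed H3K9ac site. Of these, the sites of chromosomes 7, 10, 2 and 18 had Rbap46 levels of 4.72, 5.12, 4.18 and 4.94 per the authors' deposited table. Below a level of 7 only 2.48% of all strong sites overlapped, so nothing is read from the count among these 6. The overlapping and the other strong sites had median differences of 2.10 and 2.14, but median Rbap46 levels of 8.26 and 6.95, per the authors' deposited table.

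The share that overlapped also varied between chromosomes. On chromosome 16 it was 9 of 17 strong sites, where 13.2% of the other Rbap46 sites overlapped, the largest such share of any chromosome. On chromosomes 12 and 2 it was 8 of 25 each, where 7.51% and 6.36% of the other sites did. None of the 14 strong sites of chromosome 14, the 10 of chromosome 11 and the 9 of chromosome X overlapped. Of the other Rbap46 sites there, 19 of 802, 101 of 1684 and 29 of 739 did, in this order. An Rbap46 level under 7, where overlap was rare, was found at 8, 5 and 6 of these strong sites. The 6, 7, 7 and 3 strong sites of chromosomes 4, 13, 18 and 21 did not overlap either. Counts of 0 among so few sites are not read as a trait of these chromosomes, which was not tested.

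The 57 strong sites met 59 changed H3K9ac sites, since 2 of them, on chromosomes 8 and 16, each met a pair. All 59 H3K9ac sites were lower in shHAT1 cells, where 99.2% of the whole table was. Their median log2 fold, shControl minus shHAT1, was 0.75, a 1.68-fold difference, with a range from 0.48 to 2.09 per the authors' deposited table. The median over the whole table was 0.78, and that of the 1609 H3K9ac sites that overlapped only other Rbap46 sites was also 0.75. H3K9ac sites away from Rbap46 had a median of 0.88. The medians of H3K9ac sites at strong and at other Rbap46 sites were thus equal. Log2 folds of 1 or more were found at 6 of the 59 sites, or 10.2%, against 18.4% of the table. The share was 14.1% among H3K9ac sites that overlapped only other Rbap46 sites and 32.7% among those that overlapped none. A share below that of the table was thus not particular to the strong sites. The shControl level of the 59 sites had a median of 9.24 and the shHAT1 level one of 8.54 per the authors' deposited table, against 9.27 and 8.50 for the whole table. At an FDR under 0.05 there were 23 of the 59 sites, or 39.0%, and 36.3% of the table.

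**Figure D5:**
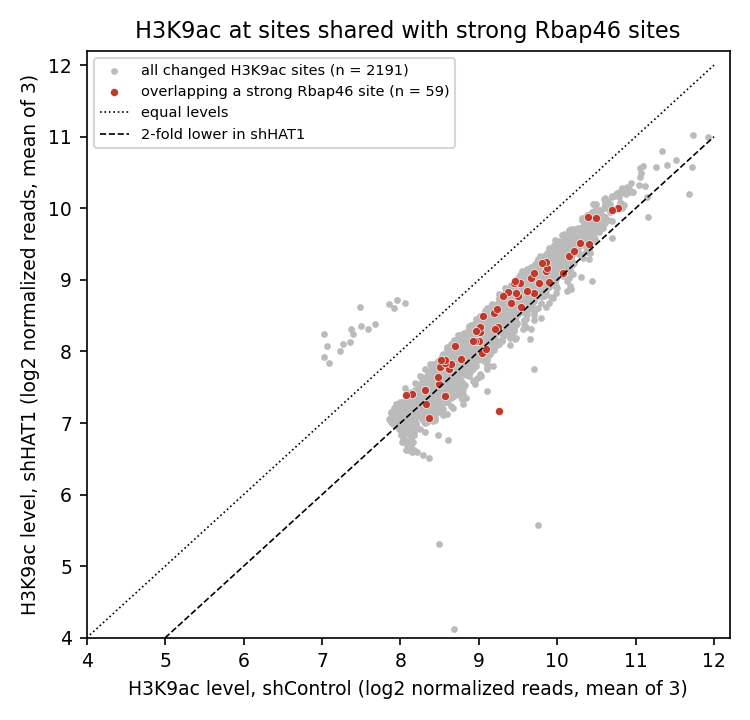
H3K9ac level in shHAT1 cells (vertical) against that in shControl cells (horizontal), as log2 means of 3 libraries each from the authors' deposited table, for all 2191 changed sites (grey) and the 59 that overlap a strong Rbap46 site (red). All 59 lie below the line of equal levels, and the site of chromosome 5 with a log2 fold of 2.09 lies furthest below it.

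The largest H3K9ac loss at a strong site was on chromosome 5. The H3K9ac site from 52777548 to 52778484 went from a level of 9.26 in shControl to 7.17 in shHAT1, a log2 fold of 2.09 per the authors' deposited table, the fourth largest of all 2191 sites. It contained the whole Rbap46 site from 52777589 to 52778089. The FDR was 0.0882 for H3K9ac, near the limit of the table, and 0.000115 for Rbap46, whose input level was only 3.52, per the authors' deposited table.

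Next in size were 2 sites on the short arm of chromosome 16, members of the same group of 4 strong sites. The H3K9ac site from 1660872 to 1661372 fell from 8.36 to 7.07 and differed by 1.29 on the log2 scale (FDR 0.0406) per the authors' deposited table. The same Rbap46 site, from 1660569 to 1661069, met a second H3K9ac site on its other flank, from 1660296 to 1660796, with a log2 fold of 0.63. The H3K9ac site from 1876813 to 1877313 had levels of 8.57 and 7.38, a log2 fold of 1.19 (FDR 0.0324) per the authors' deposited table. It was shifted by 28 bp from a strong Rbap46 site with levels of 8.85 and 6.75.

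On chromosome 9, the H3K9ac site from 139137101 to 139137601 had exactly the start and end of its Rbap46 site, which is the site whose FDR stood apart from sites of like level. Its H3K9ac level fell from 9.04 to 7.98, by 1.06 on the log2 scale (FDR 0.0314), per the authors' deposited table. The fall was also 1.06 at an H3K9ac site of chromosome 8 (FDR 0.0945). The smallest H3K9ac FDR at a strong site, 0.0151, belonged to the site of chromosome 2 from 172864741 to 172865241. Its levels were 9.09 and 8.04 and its log2 fold was 1.04 per the authors' deposited table. The remaining sites among the 10 largest losses lay on chromosomes 2, 9, 12 and 19 and had log2 folds from 0.92 to 0.99 per the authors' deposited table.

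Where they overlapped, the centres of the Rbap46 and H3K9ac sites were a median of 130 bp apart and at most 492 bp. The median overlap was 395 bp. Overlap by at least 1 bp was required and most sites were 501 bp wide, so the largest distance was bounded by that rule. For other Rbap46 sites the median distance of centres was 163 bp and the median overlap 384 bp. Of the 59 overlaps, 44 covered at least 50% of the Rbap46 site and 10 covered it whole. Across these 59 site pairs, the Rbap46 difference and the H3K9ac fold had a Spearman's rho of 0.02, and the Rbap46 level and the shControl H3K9ac level a rho of 0.05. The pairs share their libraries, and these values are a description. The Rbap46 differences were cut at 2 and the H3K9ac sites at an FDR of 0.1, which narrows the range of both. Of the Rbap46 sites, 2 entered with a pair of H3K9ac sites each. Nothing is therefore read from these values about a relation over all sites.

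The 235 strong sites without overlap were mostly far from any changed H3K9ac site. Of these, 3 had such a site within 1 kb, 8 within 10 kb and 48 within 100 kb, each count including the nearer ones. Their median distance was 420 kb, against 299 kb for the other Rbap46 sites without overlap, and the largest was 24.8 Mb. The median was 291 kb for strong sites with a level of 7 or more and 602 kb for those below.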

How the data were processed

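ChIP-seq tables of 4 groups with 10 libraries were used. Concentrations and folds are log2 values that the authors computed per group and deposited, and the p-value and FDR are those of the authors' test, per the file headers, which follow a DiffBind report. The submitters' processing notes name cutadapt 1.8.1, Bowtie2, SAMtools 1.2, Picard 1.92, MACS2 2.1.0, R 3.3.1, DiffBind, DESeq2 and hg19, without roles. Raised from base 2 and averaged, the group values gave the overall concentration within 0.00971 on the log2 scale. Fold and group difference agreed within 0.01, so the sign is Rbap46 minus input and shControl minus shHAT1. Scaling between libraries is not given in the sources used here. It can shift all levels of a group, and with them the number of sites past the limit of 2.

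The members and lists were chosen with earlier results of these data known. Named are the 15 largest differences, the 10 smallest FDR, the 10 highest Rbap46 levels, the 5 highest input levels, 3 sites on each side of the limit and the 10 overlapping sites with the largest H3K9ac fold. Overlap, distance and grouping were checked on simulated sites. No test was run, since the tables hold group means and sites are not replicates. The numbers of sites tested (at most 80837 and 12050) were inferred from the relation of p-value, rank and FDR. Sites at starts, base composition and motifs were planned but not analysed, for lack of a genome and annotation of hg19 here. Scripts ran under Python 3.11 with pandas 2.3.3, numpy 2.4.6 and scipy 1.17.1, and plots with matplotlib 3.10.9.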

Additional observations from a re-analysis of the deposited data

How the results depend on the processing

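The count of 292 strong sites became 3010 at a limit of 1.5 and 33 at 2.5. It became 184 above the 25th percentile of concentration and 171 at an Rbap46 level of 7 or more, the last an alternative added after the data were seen. It stayed within 1.5 times for FDR under 0.01 and 0.001, autosomes, no stretch left out, the authors' fold column and without the site of chromosome X. The share of 19.5% overlapping changed H3K9ac became 11.5% at a limit of 1.5 and 9.09% at 2.5, where 3 sites overlapped. It was 29.9% above the 25th percentile of concentration, 31.6% at a level of 7 or more, 15.1% with at least 50% of the site covered and 7.88% at an H3K9ac FDR under 0.05. The median H3K9ac log2 fold of 0.75 became 0.54 at a limit of 2.5, over 3 sites. The 16 sites with a strong neighbour became 2 at 10 kb, 102 at 1 Mb and 1232 at a limit of 1.5. Stricter limits remove sites by construction. No paired analysis was possible because only group means were used, and leaving out libraries was not run for the same reason. The alternatives on transcription starts were not run. Weak coverage of input leaves the size of differences at low levels uncertain.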
